A study of Mus musculus with 138 samples.

Results

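The genes of the signal that makes osteoclasts, 10 of 55487 genes counted in each library, were followed through the mouse calvarial sutures. They are Tnfsf11, Tnfrsf11b, Tnfrsf11a, Csf1, Il34, Nfatc1, Oscar, Acp5, Mmp9 and Atp6v0d2, and they were chosen by name and function. All embryos were wild type C57BL/6J, taken at E16.5 or E18.5, with no treatment or transgene. The suture mesenchyme (SM) and the osteogenic fronts (OFs) of the frontal (FR), parietal (PA) and interparietal (IP) bones were captured by laser from frozen sections of 4 sutures, the sagittal, lambdoid, coronal and frontal. This gave 20 groups of a suture, region and age with 5 libraries each, and the SM and OF libraries of a number share 1 litter label. Second libraries of the coronal suture (18, with 3 in each region and age) carry litter labels that also occur among the first libraries. Where second libraries stood in place of the first, 3 of the 5 libraries of each coronal group were replaced and the others stayed. A further 16 libraries came from complete sutures at E18.5 and served as controls for normalization in 4 sets, and 4 single-cell libraries came from pools of dissected coronal sutures at the same ages, cut free of the surrounding membranes as far as possible.

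Osteoclasts are the large multinucleated cells that resorb bone, and they form by fusion of precursors of the macrophage lineage. RANKL, the product of Tnfsf11, is made by cells of the osteoblast and stromal lineages and binds RANK, the product of Tnfrsf11a, on the precursor. Osteoprotegerin, the product of Tnfrsf11b, is a secreted decoy receptor that binds RANKL and keeps it from RANK. CSF1 and IL34 are both ligands of the CSF1 receptor, which keeps the precursors alive and dividing. Downstream of RANK, NFATC1 is the master transcription factor of osteoclast differentiation, and OSCAR is a costimulatory receptor of the same cells. Acp5 encodes tartrate-resistant acid phosphatase, Mmp9 a gelatinase that osteoclasts secrete, and Atp6v0d2 a subunit of the proton pump that is also needed for cell fusion. In the growing skull vault, resorption shapes the bones while osteoblasts add to their edges.

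The genes lie on different chromosomes (mm10), and each count covers the exons of the whole gene without regard to strand. Tnfsf11 lies at chr14:78277445-78308043 on the minus strand, Tnfrsf11b at chr15:54250619-54278484 (minus) and Tnfrsf11a at chr1:105780718-105847981 (plus). Csf1 lies at chr3:107741048-107760469 (minus), Oscar at chr7:3609813-3616157 (minus), Mmp9 at chr2:164940780-164955850 (plus) and Atp6v0d2 at chr4:19876841-19922605 (minus). Il34, at chr8:110741829-110805924 (minus), shares 4.95% of its exon bases with Gm15894 and Gm15895 on the other strand. Acp5, at chr9:22126727-22135711 (minus), shares 6.75% with 6530413G14Rik, so reads there cannot be assigned to 1 of the overlapping genes.

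Promoter sequence was found for 5 of the 10 genes in RefSeq (GRCm38.p6), and the 250 bases before the start of the ligand, the receptor and 2 genes known as NFATC1 targets are shown because they carry, or lack, the core that NFAT proteins bind. Capitals mark GGAAA or its complement TTTCC, and in Tnfsf11 also TATAAA read on the other strand (TTTATA). The windows are chr14:78308044-78308293 (minus) for Tnfsf11, chr1:105780473-105780722 (plus) for Tnfrsf11a, chr7:3616158-3616407 (minus) for Oscar and chr9:22135747-22135996 (minus) for the first of 3 starts of Acp5, each written 5′ to 3′ on the strand of the gene.
Tnfsf11: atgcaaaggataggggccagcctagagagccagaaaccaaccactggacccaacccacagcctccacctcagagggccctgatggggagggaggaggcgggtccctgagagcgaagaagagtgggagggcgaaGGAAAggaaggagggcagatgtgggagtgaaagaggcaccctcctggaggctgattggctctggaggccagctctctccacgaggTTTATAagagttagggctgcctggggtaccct
Tnfrsf11a: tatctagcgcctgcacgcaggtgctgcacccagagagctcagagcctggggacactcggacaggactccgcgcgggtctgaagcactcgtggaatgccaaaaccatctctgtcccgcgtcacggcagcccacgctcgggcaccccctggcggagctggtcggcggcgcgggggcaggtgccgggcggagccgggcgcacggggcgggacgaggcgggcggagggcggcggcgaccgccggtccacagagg
Oscar: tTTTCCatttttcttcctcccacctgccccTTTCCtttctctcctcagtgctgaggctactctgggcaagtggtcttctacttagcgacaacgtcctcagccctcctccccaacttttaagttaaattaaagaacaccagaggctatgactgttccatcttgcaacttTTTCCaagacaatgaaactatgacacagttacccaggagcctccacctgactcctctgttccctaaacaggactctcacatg
Acp5: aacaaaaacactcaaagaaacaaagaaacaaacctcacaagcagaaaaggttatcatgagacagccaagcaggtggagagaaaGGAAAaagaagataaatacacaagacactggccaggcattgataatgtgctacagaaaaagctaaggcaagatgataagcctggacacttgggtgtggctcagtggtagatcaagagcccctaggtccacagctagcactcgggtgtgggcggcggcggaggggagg

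Oscar held 3 NFAT cores, Csf1 (not shown) 3, Tnfsf11 and this start of Acp5 1 each, and Tnfrsf11a none of the 5 motifs searched on both strands, in a window with 73.6% G and C. GGAAA occurs by its shortness in 55.6% of all 32851 promoter windows of this length. The PU.1 core GAGGAAGT (2.44% of windows), the AP-1 site TGANTCA (6.75%) and the E-box CACGTG that MITF can bind (6.02%) were in none of the 7 windows of these genes, and TATAAA (12.4%) was in that of Tnfsf11 alone. No promoter sequence is shown for Mmp9, Atp6v0d2, Tnfrsf11b, Il34 and Nfatc1. A match is a description of the letters only.

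The first libraries held 7305627 to 34518477 counted read pairs each, and the sutures differed in depth, from a median of 8904144 in the lambdoid to 23995246 in the coronal suture, so levels were tested within sutures. Levels are given as CPM, counts scaled to a common library total, on totals scaled by the trimmed mean of M-values (TMM). The labels of the regions held in the markers of bone: the summed level of 9 osteoblast genes was 1878 to 22571 CPM in the 60 OF libraries and 23.3 to 936 CPM in the 40 SM libraries, with 8 of 9 lower in SM. Markers of macrophages were higher in SM for 8 of 11 genes, with summed levels of 81.0 to 474 CPM against 88.2 to 283 CPM, and of 6 osteoclast markers tested of 10, 1 was higher and 2 were lower in SM. Among 7 chondrocyte and 6 pericyte markers 5 of each were higher in SM and 1 of each was lower. All 5 proliferation markers tested were lower. Of the 10 osteoclast markers, Siglec15 had no count in 5 of the 8 sets of a suture and age, and Calcr none in the frontal suture at E18.5. No other marker of that list was at 0 in a whole set. The part of these other cells in the results below was not tested. In bulk samples fewer cells of a type and less RNA per cell cannot be told apart. The 15 coronal E16.5 libraries stood apart: each correlated with the others of its group at a mean r of 0.838 to 0.885 and detected 17274 to 22824 genes, against 0.902 to 0.978 and 21273 to 28397 genes in 84 other libraries, and frontal FR E18.5 replicate 5 did so too (r = 0.877). Results that rest on them are given with and without them.

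**Figure D1:**
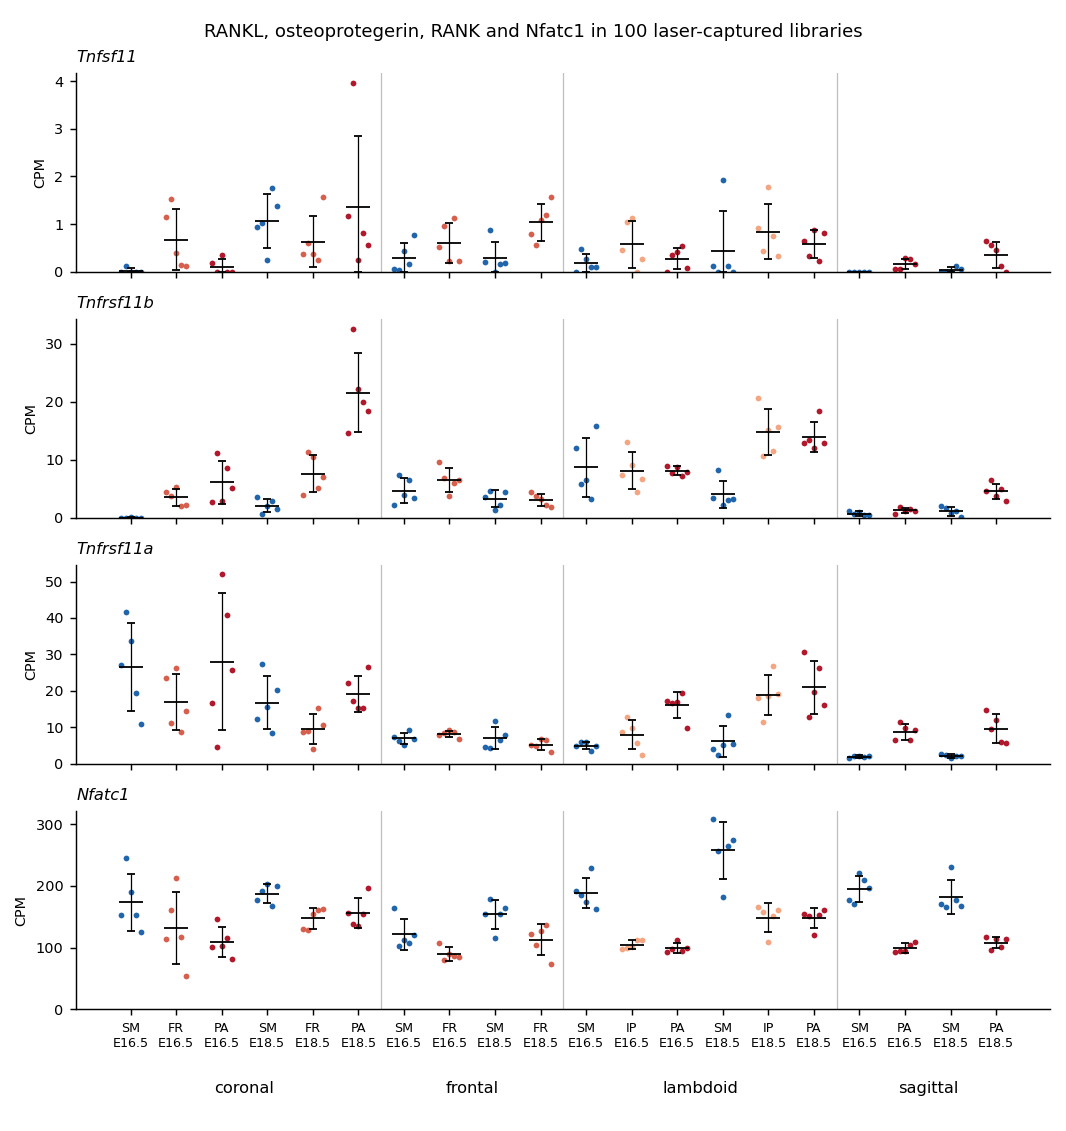
Level (CPM, linear axis) of Tnfsf11, Tnfrsf11b, Tnfrsf11a and Nfatc1 in the 100 first libraries, by suture, age and region; each point is a library, horizontal marks are group means of 5 and error bars are the SD, drawn no lower than 0. Tnfrsf11b rose to 14.6 to 32.7 CPM in the 5 coronal PA libraries of E18.5, and Nfatc1 was higher in SM (blue) than in the OF beside it in all 12 pairs of groups.

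Across all 4 sutures and both ages, 3 of the 10 genes were lower in SM than in OF and 1 was higher (edgeR's quasi-likelihood test, adjusted p below the threshold of 0.05). RANKL, osteoprotegerin and RANK were the 3 that were lower, and Nfatc1 was the gene that was higher. Of all 19768 genes tested 55.4% were called in this comparison, more than the share of these genes, so the count is no result about the group. The median log2 fold change of the 10 genes was -0.03, against 0.04 for all genes. Csf1, Oscar, Acp5, Mmp9 and Atp6v0d2 did not pass (adjusted p from 0.301 to 1.00), and nor did Il34 (log2 fold change 0.51, adjusted p = 0.118), which passed when second coronal libraries replaced the first (0.62, adjusted p = 0.0266).

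By suture and age, 29 of 120 tests of these genes were called, 21 lower and 8 higher in SM, where 19% of all tests over all genes were called. In the coronal suture the calls numbered 2 of 10 at FR E16.5 (30.3% of all genes), 5 at PA E16.5 (35.6%), 1 at FR E18.5 (3.46%) and 2 at PA E18.5 (18%). The frontal suture had 1 call at each age, against backgrounds of 7.91% at E16.5 and 11.1% at E18.5. In the lambdoid suture there were 2 calls at IP E16.5 (11.2%), 2 at PA E16.5 (23.1%), 3 at IP E18.5 (19.6%) and 3 at PA E18.5 (24.6%). The sagittal suture had 3 at E16.5 (17.7%) and 4 at E18.5 (25.3%). The osteoprotegerin and Nfatc1 genes made up 14 of the 29.

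Tnfsf11, the RANKL gene, was scarce everywhere: its group means ran from 0 to 1.35 CPM, its median was 0.262 CPM, and 22 of 100 libraries held no read of it. Its pooled log2 fold change of SM over OF was -1.83 (SE 0.36, adjusted p = 7.1e-06), and -1.66 (adjusted p = 3.92e-05) without the coronal E16.5 libraries. Of 12 contrasts 11 were negative and 3 were called. At sagittal E16.5 the 5 SM libraries had no count at all, while the PA libraries had 0.0597, 0.0591, 0.286, 0.264 and 0.173 CPM (15 counts). With the limit that a count of 0 allows (3 counts over the group), and the PA counts taken as exact, SM was at least 4.51-fold lower (adjusted p = 0.0145). The groups did not overlap, though the lowest PA libraries, at 0.0591 and 0.0597 CPM, lay close to 0. The call was lost in 2 of 16 other settings (adjusted p up to 0.0703).

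At sagittal E18.5 Tnfsf11 was at 0, 0, 0, 0.130 and 0.0635 CPM in SM (3 counts) and at 0.642, 0.558, 0.450, 0.123 and 0 CPM in PA (27 counts). The OF over SM ratio was 8.74 with a 95% counting interval of 2.69 to 45 (adjusted p = 0.0457), the groups overlapped, and the call was lost in 10 of 16 other settings, among them the replicate block of the embryo (log2 fold change -2.64, adjusted p = 0.13). In the coronal suture at E16.5, SM had 3 counts in 5 libraries and FR had 62, at 1.15, 1.54, 0.404, 0.151 and 0.117 CPM. This ratio was 23.2 (counting interval 7.59 to 116; adjusted p = 0.00232), yet the second libraries had 0.595 to 0.632 CPM in SM and 0 to 0.972 CPM in FR, and gave a log2 fold change of -0.18 (adjusted p = 0.937) in place of the first. No coronal contrast at E18.5 was called, and SM there, at 0.937, 1.03, 0.239, 1.75 and 1.38 CPM, overlapped with PA (0.243 to 3.97 CPM). In the frontal suture the means were 0.293 ± 0.304 CPM in SM and 0.613 ± 0.419 CPM in FR at E16.5, and 0.287 ± 0.337 and 1.04 ± 0.38 CPM at E18.5 (SD, n = 5). Neither difference was called (adjusted p = 0.719 and 0.294).

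Tnfrsf11b, the osteoprotegerin gene, was lower in SM over all sutures, with a log2 fold change of -1.87 (SE 0.16, adjusted p = 2.24e-18). SM libraries had a median of 2.16 CPM (0 to 15.9) and OF libraries one of 6.72 CPM (0.597 to 32.7). Without the coronal E16.5 libraries the difference was smaller, at -1.08 (adjusted p = 5.19e-10). By suture 7 of 12 contrasts were called, all lower in SM, and in none of the 7 did the groups overlap. The share of all genes without overlap was not counted, so here and elsewhere a lack of overlap describes the libraries only.

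In the coronal suture at E18.5 Tnfrsf11b stood at 3.51, 0.580, 2.07, 2.84 and 1.42 CPM in SM. The FR libraries held 3.97, 11.3, 10.5, 5.198 and 6.98 CPM and the PA libraries 14.6, 32.7, 22.2, 20.04 and 18.4 CPM. Every OF library was above every SM library, with log2 fold changes of -1.86 (SE 0.43, adjusted p = 0.00275) against FR and -3.37 (SE 0.45, adjusted p = 5.15e-09) against PA. The FR call was lost without replicate 2. At E16.5 the coronal SM held 2 counts in 5 libraries, against 320 in FR (1.96 to 5.31 CPM) and 668 in PA (2.72 to 11.2 CPM). The ratios were 180 (counting interval 49.4 to 1490; adjusted p = 1.26e-14) and 329 (90.6 to 2719; adjusted p = 5.97e-17). The second libraries had 0.0756, 0.521 and 1.76 CPM in this SM, and with them the log2 fold changes were -2.89 (adjusted p = 9.6e-05) and -4.16 (adjusted p = 3e-08), lower in size and still called.

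At lambdoid E18.5 the SM libraries had 3.40, 8.202, 2.14, 3.13 and 3.21 CPM of Tnfrsf11b. IP libraries had 20.7, 10.7, 15.2, 11.6 and 15.6 CPM, and PA libraries had 12.8, 13.5, 11.95, 18.4 and 12.8 CPM. The log2 fold changes of SM were -1.88 (SE 0.43, adjusted p = 0.000508) and -1.79 (SE 0.43, adjusted p = 0.000763). At E16.5 no such difference was called in this suture: SM had 11.95, 5.90, 6.53, 3.26 and 15.9 CPM, IP had a mean of 8.13 ± 3.26 CPM and PA 8.10 ± 0.74 CPM (SD, n = 5), and both log2 fold changes were 0.10 (adjusted p = 0.944 and 0.902). The sagittal suture had lower levels, at 2.08, 1.65, 0.735, 1.11 and 0.127 CPM in SM and 4.64, 6.45, 3.73, 4.90 and 2.89 CPM in PA at E18.5 (log2 fold change -1.98, SE 0.45, adjusted p = 0.000257). Its E16.5 contrast was not called (-0.80, adjusted p = 0.262). In the frontal suture SM and FR had like means, 4.68 ± 2.18 and 6.55 ± 2.11 CPM at E16.5 and 3.25 ± 1.46 and 3.10 ± 1.06 CPM at E18.5 (adjusted p = 0.693 and 0.962).

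Tnfrsf11a, which encodes RANK, was called lower in SM in 5 contrasts of the lambdoid and sagittal sutures. Over all sutures the log2 fold change was -0.82 (SE 0.13, adjusted p = 2.21e-08), and -0.98 without the coronal E16.5 libraries. At E16.5 the sagittal libraries held 1.41, 2.16, 2.07, 1.89 and 2.04 CPM in SM and 6.56, 11.4, 9.77, 6.49 and 9.13 CPM in PA, and at E18.5 2.66, 2.27, 1.40, 2.08 and 1.97 CPM in SM and 14.8, 9.49, 12.1, 5.95 and 5.77 CPM in PA. Neither age had an overlap, and the log2 fold changes were -2.18 (SE 0.39, adjusted p = 7.8e-06) and -2.20 (SE 0.39, adjusted p = 3.63e-06).

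In the lambdoid suture at E16.5 Tnfrsf11a had 4.73, 5.80, 5.90, 3.35 and 4.70 CPM in SM and 17.3, 16.7, 17.02, 19.3 and 9.80 CPM in PA, without overlap (log2 fold change -1.71, SE 0.38, adjusted p = 0.000266). The IP front, at 2.43 to 12.9 CPM, was not called at that age. At E18.5 both fronts were above SM, with log2 fold changes of -1.63 (SE 0.38, adjusted p = 0.000561) for IP and -1.79 (SE 0.38, adjusted p = 0.000124) for PA, and 1 SM library (13.3 CPM) reached into their ranges. Coronal and frontal contrasts were not called, except that coronal PA E16.5 was with second libraries in place of the first (-1.24, adjusted p = 0.00771). The highest group means of Tnfrsf11a were in the coronal suture at E16.5, 27.99 ± 18.9 CPM in PA and 26.5 ± 12.03 CPM in SM (SD, n = 5), which do not differ beyond their spread. In CPM of the total count the 3 second SM libraries of that age had a mean of 9.01 (4.69 to 17.01), against 22.99 in the 5 first ones.

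Csf1 had group means from 33.1 CPM in sagittal PA E16.5 to 62.9 CPM in coronal PA E16.5. The 2 calls of 12 were lower levels in coronal SM than PA, at E16.5 (log2 fold change -0.74, SE 0.20, adjusted p = 0.00274) and at E18.5 (-0.59, SE 0.20, adjusted p = 0.0315). At E18.5 SM had 24.4 to 41.1 CPM and PA 39.4 to 65.9 CPM, which overlapped. The E18.5 call was lost in 8 of 17 other settings (adjusted p up to 0.413) and the E16.5 call in 3 of 16 (up to 0.333). With the replicate block Csf1 was also called lower in SM than in coronal FR at E16.5 (-0.54, adjusted p = 0.0151). Il34, the other ligand of the CSF1 receptor, had group means from 0.379 to 1.66 CPM and was higher in SM in 10 of 12 contrasts, none of them called. Per kilobase of exon, the median over 100 libraries was 7.98 CPM for Csf1 and 0.425 CPM for Il34. On the same scale Nfatc1 had 19.9, Acp5 1.87, Tnfrsf11b 1.57, Tnfrsf11a 1.52, Mmp9 0.306, Oscar 0.211, Tnfsf11 0.117 and Atp6v0d2 0.0351 CPM per kilobase.

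Nfatc1 was the 1 gene of the 10 that was higher in SM over all sutures, with a log2 fold change of 0.64 (SE 0.05, adjusted p = 1.27e-18). SM libraries had a median of 177 CPM (103 to 309) and OF libraries one of 113 CPM (54.5 to 213). All 12 contrasts were positive, from 0.26 to 0.97, and 7 were called. In the sagittal suture SM had 177, 171, 221, 210 and 197 CPM at E16.5 and PA 93.0, 94.1, 94.9, 105 and 110 CPM. At E18.5 the SM libraries held 171, 165, 231, 177 and 167 CPM and the PA libraries 117, 95.4, 114, 101 and 113 CPM. Both ages were without overlap, at log2 fold changes of 0.97 (SE 0.17, adjusted p = 2.71e-06) and 0.76 (SE 0.17, adjusted p = 0.000195).

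The lambdoid suture showed the same order for Nfatc1. At E18.5 its SM libraries had 309, 257, 182, 265 and 274 CPM, its IP libraries 166, 157, 108, 152 and 160 CPM and its PA libraries 155, 151, 120, 153 and 161 CPM. All 4 lambdoid contrasts were called (log2 fold changes 0.79 to 0.92) and none overlapped. The coronal PA contrast of E16.5 was called too (0.66, SE 0.17, adjusted p = 0.000981), with overlap. With the embryo as a replicate block, coronal FR at E16.5 (adjusted p = 0.00472) and the frontal suture at E16.5 (0.0243) and E18.5 (0.0112) were called as well. In lambdoid and sagittal SM Nfatc1 was thus called higher and Tnfrsf11a lower, except that Tnfrsf11a was not called against lambdoid IP at E16.5. Oscar was low, with group means of 0.0491 to 1.43 CPM and no count in 20 libraries, and none of its 12 contrasts was called (pooled log2 fold change 0.44, adjusted p = 0.306).

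**Figure D2:**
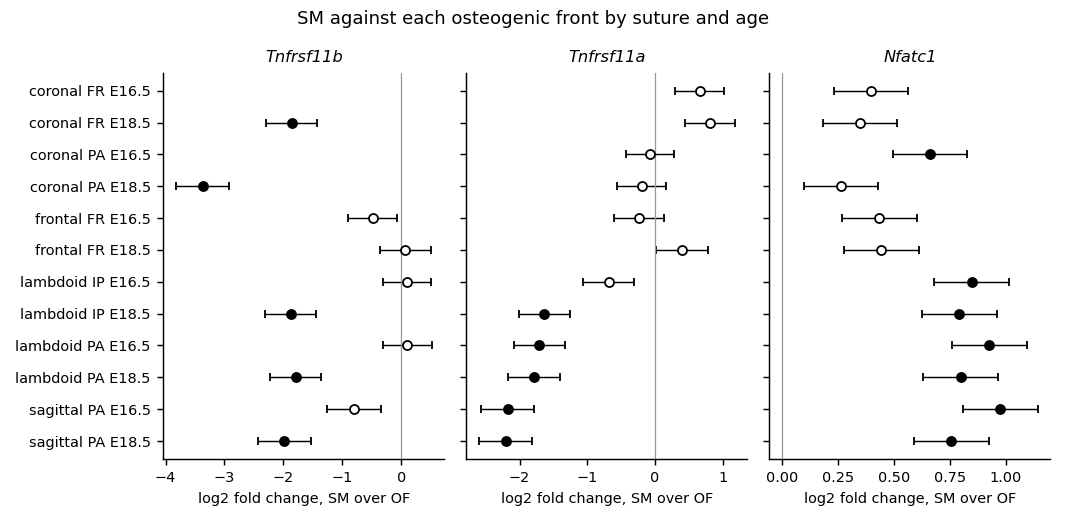
Log2 fold change of SM over each OF by suture and age for Tnfrsf11b, Tnfrsf11a and Nfatc1, from 5 libraries a group; error bars are the SE and filled points passed the test. The 2 coronal E16.5 contrasts of Tnfrsf11b are left out because SM had 2 counts in all, and Nfatc1 was above 0 in all 12 contrasts, from 0.26 to 0.97.

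The effector genes of resorption gave 5 calls in 36 contrasts of SM with OF, where 19% of all tests over all genes were called. Acp5 had group means of 0.862 to 8.33 CPM and a pooled log2 fold change of 0.02 (adjusted p = 0.967). Its 1 call of 12 was coronal PA E16.5, with 0, 0.855, 2.87, 0.587 and 0 CPM in SM and 7.68, 4.42, 3.43, 1.43 and 1.46 CPM in PA (log2 fold change -2.06, SE 0.62, adjusted p = 0.00631), which overlapped. The call was lost in 4 of 16 other settings. With coronal E16.5 from second libraries alone, which had 5.97 to 12.2 CPM of the total count in SM and 7.82 to 15.3 in PA, the log2 fold change was -0.52 (adjusted p = 0.515). Mmp9 was called at coronal PA E16.5 with higher SM (2.28, SE 0.91, adjusted p = 0.0411). There SM had 1.72, 23.6, 5.23, 0.7998 and 1.03 CPM and PA 3.44, 0, 2.62, 0.368 and 0.271 CPM, and with the replicate block the call was lost (1.66, adjusted p = 0.209). It was lost in 7 of 16 other settings in all, and without replicate 2, which holds the SM library at 23.6 CPM, the log2 fold change was 0.40 (adjusted p = 0.773). At lambdoid IP E16.5 Mmp9 was lower in SM (-3.44, SE 1.02, adjusted p = 0.0150), with 0.987, 0.734, 4.84, 13.6 and 1.04 CPM in IP and 0 to 0.745 CPM in SM. Without replicate 4, which holds the library at 13.6 CPM, this was -2.59 (adjusted p = 0.165).

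Atp6v0d2 was measured mainly in the coronal suture: its coronal group means ran from 3.23 to 14.4 CPM, and the other 14 groups were at 0.945 CPM or below, with 42 of 100 libraries at 0. In the coronal SM it had 6.26, 4.19, 10.4, 4.21 and 4.72 CPM at E16.5 and 15.1, 15.52, 19.9, 8.98 and 12.4 CPM at E18.5. Its 2 calls were in the frontal suture, where SM held 2 counts at each age against 44 and 49 in FR. The FR over SM ratios were 20.6 (counting interval 5.36 to 175; adjusted p = 0.0327) and 24.8 (6.50 to 210; adjusted p = 0.0176), and with the replicate block the adjusted p values were 0.0548 and 0.102. The calls were lost in 6 of 16 and 4 of 17 other settings in all. Without 1 replicate the log2 fold change of SM was as small as -3.04 (replicate 3, adjusted p = 0.258) at E16.5 and -2.71 (replicate 2, adjusted p = 0.299) at E18.5. Of the 49 frontal FR counts at E18.5 most lay in 1 library at 3.27 CPM, and the others had 1.02, 0.0981, 0.339 and 0 CPM.

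**Figure D3:**
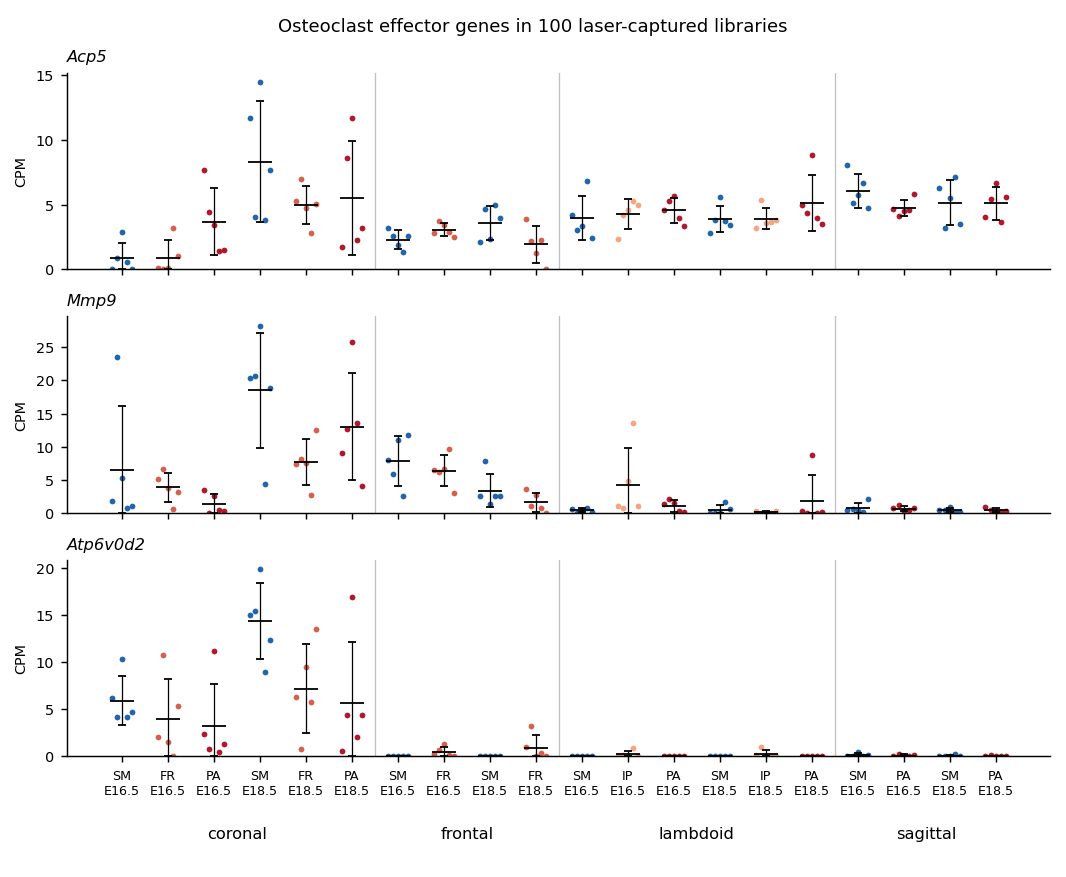
Level (CPM, linear axis) of Acp5, Mmp9 and Atp6v0d2 in the 100 first libraries, by suture, age and region; points are libraries, horizontal marks group means of 5 and error bars the SD, drawn no lower than 0. Atp6v0d2 had coronal group means of 3.23 to 14.4 CPM and was at or near 0 elsewhere.

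The difference between SM and OF changed with the suture for 5 of the 10 genes (edgeR's quasi-likelihood test on 3 degrees of freedom), where 20% of all genes were called. These were Tnfrsf11b (adjusted p = 5.18e-13), Tnfrsf11a (3.56e-09), Atp6v0d2 (0.00103), Nfatc1 (0.018) and Csf1 (0.046). For Tnfrsf11b the 2 frontal log2 fold changes were -0.48 and 0.07, against -1.86 to -7.81 in the coronal suture. The largest coronal values rest on 2 counts in SM at E16.5, in libraries that stood apart. Tnfrsf11b kept its call in all 16 other settings, among them the one without those libraries (adjusted p up to 0.000149). So did Tnfrsf11a (up to 0.00016) and Atp6v0d2 (up to 0.0243). For Atp6v0d2 the medians of SM and OF at each age were 0 in the lambdoid and 0 to 0.0642 CPM in the sagittal suture. Its test thus compares levels near 0 in those sutures. For Tnfrsf11a the coronal SM means were 26.5 ± 12.03 CPM at E16.5 and 16.7 ± 7.32 CPM at E18.5 (SD, n = 5), within the range of the means of its fronts (9.53 to 27.99 CPM). The call was lost in 8 of 16 other settings for Csf1 (adjusted p up to 0.253) and in 5 of 16 for Nfatc1 (0.18). A change of the difference with age was called for 0 of the 10 genes by edgeR's quasi-likelihood test, against 0.703% of all genes. Its lowest unadjusted p was 0.0569, for Tnfrsf11b (adjusted p = 0.519), no gene had an unadjusted p under 0.05, and DESeq2 and limma-voom called 0 as well.

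From E16.5 to E18.5, 3 of the 10 genes rose in SM over all sutures, where 11.1% of all genes were called: Tnfsf11 (log2 fold change 2.15, SE 0.60, adjusted p = 0.00869), Tnfrsf11b (1.32, SE 0.26, adjusted p = 8.4e-05) and Acp5 (0.90, SE 0.30, adjusted p = 0.0363). All 3 calls needed the coronal suture, whose E16.5 libraries stood apart. Leaving those libraries out also takes the coronal suture out of the comparisons with age over all sutures. Over the other sutures the values were 1.21 (adjusted p = 0.192) for Tnfsf11, -0.33 (0.413) for Tnfrsf11b and 0.12 (0.798) for Acp5, and Nfatc1 was called in their place (0.23, adjusted p = 0.0249). In OF 2 of the 10 rose, with 12.2% of all genes called: Tnfrsf11b (0.76, SE 0.18, adjusted p = 0.00186) and Nfatc1 (0.33, SE 0.07, adjusted p = 0.000419). The 2 fronts of a coronal or lambdoid embryo counted as separate libraries in this fit, and no fit with age had the embryo as a block. Without the coronal E16.5 libraries Tnfrsf11b was at 0.55 (adjusted p = 0.0515) and Nfatc1 at 0.35 (4.89e-05), Csf1 rose (0.23, adjusted p = 0.0183), and Mmp9 fell by 1.57 on the log2 scale (adjusted p = 0.0113).

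By suture and region, 11 of 100 tests with age were called, 10 of them higher at E18.5, and 8.57% of all tests over all genes were. Coronal groups held 9 of the 11: 3 genes in SM (27.1% of all genes called), 2 in FR (24.4%) and 4 in PA (20.6%). No gene was called in the frontal suture, in SM (2.33%) or FR (4.34%), in lambdoid SM (2.96%) or PA (0.986%), or in sagittal SM (1.12%). Lambdoid IP had 1 call (0.288%) and sagittal PA 1 (1.6%). The sagittal PA gene was Tnfrsf11b, which rose from 0.597, 1.83, 1.1996, 1.43 and 1.21 CPM to 4.64, 6.45, 3.73, 4.90 and 2.89 CPM without overlap (log2 fold change 1.84, SE 0.44, adjusted p = 0.00898). Its call was lost in 3 of 16 other settings (adjusted p up to 0.0651). In the same libraries the sums of endothelial markers (34.9 to 91.0 CPM, then 165 to 275 CPM) and pericyte markers (248 to 306, then 384 to 512 CPM) rose without overlap. Those of macrophage and osteoclast markers overlapped, and the part of these cells was not tested. The lambdoid IP gene was Mmp9, with 1 library at 13.6 CPM and 4 at 0.734 to 4.84 CPM at E16.5 and 3 of 5 libraries at 0 at E18.5 (fell by 4.95 on the log2 scale, SE 1.19, adjusted p = 0.0328). This call was lost in 5 of 16 other settings, and without replicate 4 the log2 fold change was -3.42 (adjusted p = 0.559).

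The coronal PA front gained Tnfrsf11b from 2.72 to 11.2 CPM at E16.5 to 14.6 to 32.7 CPM at E18.5 (log2 fold change 1.81, SE 0.42, adjusted p = 0.00101), without overlap. It also gained Tnfsf11 (3.62, SE 1.04, adjusted p = 0.00804), Mmp9 (3.28, SE 0.94, adjusted p = 0.0081) and Nfatc1 (0.51, SE 0.17, adjusted p = 0.0194). The FR front gained Acp5 (2.45, SE 0.63, adjusted p = 0.0024) and Tnfrsf11b (1.10, SE 0.42, adjusted p = 0.0441). The call of Tnfsf11 in PA was lost in 4 of 15 other settings (adjusted p up to 0.42), among them without replicate 2, which holds the PA library at 3.97 CPM (2.35, adjusted p = 0.114). The call of Tnfrsf11b in FR was lost in 9 of 15 other settings (adjusted p up to 0.271) and that of Nfatc1 in PA in 4 of 15 (up to 0.316). In the coronal OF libraries the summed level of pericyte markers went from 157 to 523 CPM to 552 to 1200 CPM, without overlap. Those of macrophage and osteoclast markers overlapped between the ages, and the part of these cells in the gains was not tested. In SM Acp5 went from 0 to 2.87 CPM at E16.5 to 11.7, 4.02, 14.5, 3.78 and 7.69 CPM at E18.5 (3.23, SE 0.65, adjusted p = 7.52e-05), Tnfsf11 from 3 to 117 counts (ratio 35.6, counting interval 11.9 to 175) and Tnfrsf11b from 2 to 232 counts (ratio 106, counting interval 29.0 to 879). In the same SM libraries the summed level of macrophage markers went from 81.0 to 150 CPM to 216 to 336 CPM, without overlap, and that of osteoclast markers from a median of 80.8 to one of 179 CPM. Chondrocyte markers (83.8 to 121 CPM, then 243 to 328 CPM) and periosteal markers (3693 to 5040 CPM, then 6398 to 8507 CPM) were higher without overlap too, and suture mesenchyme markers (4162 to 5218 CPM, then 3439 to 4079 CPM) were lower. The part of these cells in the rises of Acp5, Tnfsf11 and Tnfrsf11b was not tested.

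These coronal rises were not alike in the second libraries. Acp5 stood at 5.97 to 12.2 CPM of the total count in the 3 second SM libraries of E16.5, against 0 to 2.49 CPM in the 5 first ones, and at 7.92 to 15.2 CPM against 0 to 2.91 CPM in FR. With second libraries in place of the first, the log2 fold change of Acp5 with age was 1.47 (adjusted p = 0.0849) in SM and -0.05 (0.973) in FR. That setting replaced 3 of the 5 libraries of each coronal group. The groups thus mix both sets, and the part of this mixing in the spread was not tested. Within the second FR libraries the mean was 12.7 CPM of the total count at both ages, and within the first ones it was 0.712 CPM at E16.5 and 4.93 CPM at E18.5. With second libraries in place of the first, the rise of Tnfrsf11b was called in SM (2.03, adjusted p = 0.013) but not in PA (1.23, adjusted p = 0.117). The rises of Tnfsf11 in SM (1.70, adjusted p = 0.274) and PA (2.28, adjusted p = 0.151) and of Mmp9 in PA (2.11, adjusted p = 0.126) were not called with second libraries in place of the first.

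The other genes of the pathway were taken from 7 lists by role, and their counts are read against the 55.4% of all genes called in the pooled SM against OF comparison. In the pooled SM against OF comparison all 3 receptor genes of CSF1 and IL34 were called: Ptprz1, a receptor of IL34, was lower in SM (log2 fold change -3.33, SE 0.14, adjusted p = 4.36e-39), and Sdc1 (0.42) and Csf1r (0.30) were higher. Of 12 adapter and NF-kB genes 5 were called, 2 higher and 3 lower. Lgr4, which can also bind RANKL, was lower (-0.83, SE 0.06, adjusted p = 5.82e-23), as was Traf3 (-0.55), and the kinase gene Map3k14 (0.50) and Nfkb1 (0.28) were higher. All 3 called of 5 costimulation and fusion genes tested were higher in SM: Trem2 (0.66, adjusted p = 0.0488), Tyrobp (0.48) and Fcer1g (0.48), which macrophages also express. Without the coronal E16.5 libraries Trem2 was not called (0.57, adjusted p = 0.0645), and Syk of the same list was (0.63, adjusted p = 2.11e-05). Siglec15, Dcstamp and Ocstamp did not pass the filter.

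Of 5 transcription factor genes 3 were higher in SM, the myeloid factor gene Spi1 (0.54), Jdp2 (0.50) and Mitf (0.39), and Fos was lower (-1.31, SE 0.26, adjusted p = 9.43e-06). Of 12 genes tested for the resorption machinery 1 was higher and 4 lower. Ckb, a creatine kinase, was lower (-2.11), with Car2 (-0.67) and Ostm1 (-0.42), and the kinase gene Src was higher (0.70). Of 8 genes tested for hormones and cytokines that act on Tnfsf11, 3 were lower and 3 higher. The vitamin D receptor gene Vdr had means of 2.25 CPM in SM and 14.6 CPM in OF (-2.60, SE 0.17, adjusted p = 1.54e-24), and the parathyroid hormone receptor gene Pth1r 35.7 and 142 CPM (-2.05, SE 0.08, adjusted p = 6.47e-43). The prostaglandin receptor gene Ptger4 (0.86) and Wnt16 (0.82) were higher in SM. Without the coronal E16.5 libraries Clcn7 (0.29, adjusted p = 0.00142) and Ctsk (0.13, adjusted p = 0.0226) of the resorption list and Relb (0.35, adjusted p = 0.0211) of the adapters were also higher, and the adapter list's Nfkb2 was lower (-0.32, adjusted p = 0.00384). The medians of the lists lay between -0.21 and 0.48 on the log2 scale.

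With age in OF, Fos (1.55), Ptgs2 (0.80), Relb (0.72) and Ptprz1 (0.45) rose among the genes of these lists, and Bcl6, a repressor of osteoclast formation, fell by 0.80 on the log2 scale. The proton-supplying enzyme gene Car2 (-1.36), Snx10 (-0.59), Src (-0.41), Wnt5a (-0.33), Sdc1 (-0.30) and Lgr4 (-0.30) were lower at E18.5. None of the 5 costimulation and fusion genes tested was called, where 12.2% of all genes were. Without the coronal E16.5 libraries Relb (0.21, adjusted p = 0.543), Car2 (-0.99, 0.0685), Snx10 (-0.26, 0.101), Wnt5a (-0.09, 0.65) and Lgr4 (-0.11, 0.372) were not called. Vdr (0.69, adjusted p = 0.00371), Ikbkb (0.26, 0.0384) and Slc9b2 (1.64, 0.0444) were called higher in that setting and not in the main fit.

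With age in SM, where 11.1% of all genes were called, 2 of the 5 costimulation and fusion genes passed, Tyrobp (0.82) and the kinase gene Syk (0.88). They are named after their values were seen, as are the other genes of this paragraph. Without the coronal E16.5 libraries neither was called (0.17, adjusted p = 0.537, and 0.29, adjusted p = 0.413). Of 11 macrophage markers, Csf1r among them, 6 were called with age in SM, all higher. The part of macrophages in these rises was not tested. One gene each was higher among the 3 receptors (Csf1r, 0.75), 12 adapters (Relb, 0.83), 5 transcription factors (Mitf, 1.07), 12 resorption genes (Ckb, 0.41) and 8 hormones and cytokines (Lif, 1.19), and Bcl6 fell by 1.54 on the log2 scale. Of these Csf1r (0.35), Mitf (0.86), Lif (1.03) and Bcl6 (-1.63) were also called without those libraries, and Relb (adjusted p = 0.102) and Ckb (0.703) were not. Ikbkb (0.37) was called higher, and Itgb3 (-0.49) and Traf3 (-0.43) lower, without those libraries only.

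Over the 20 group means of log2 CPM, the genes whose pattern was most like that of Tnfsf11 among the 19768 tested were Gm16133 (Pearson r = 0.88), Gm26175 (0.83) and Slc6a2 (0.80). For Tnfrsf11b they were Inppl1, Tmem184b and Kcng1 (0.88 each), and for Acp5 Cybc1 (0.92), Tigd5 (0.92) and Ten1 (0.91). The points share libraries and depth by suture, so these values are a description only.

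In complete sutures at E18.5 Acp5, Mmp9, Atp6v0d2 and Oscar were higher in the coronal suture than in any other, in each of 4 library sets. Acp5 had 235 to 353 CPM (of the total count) in the coronal suture, 26.4 to 40.6 in the lambdoid, 5.32 to 9.04 in the sagittal and 4.28 to 7.54 in the frontal. Mmp9 had 369 to 408, 58.4 to 72.1, 1.47 to 3.01 and 8.56 to 10.8 CPM in the same order. Oscar, hardly measurable in captured regions, reached 17.2 to 27.5 CPM in the coronal suture and 1.47 to 2.18 CPM in the lambdoid. Within sets the coronal suture exceeded the next one, the lambdoid, by ratios of 11.7 to 17.3 for Oscar, 7.62 to 9.90 for Acp5, 5.65 to 6.72 for Mmp9 and 4.03 to 4.89 for Atp6v0d2.

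Among the signalling genes of complete sutures, Tnfrsf11a had 26.5 to 41.3 CPM in the coronal and 9.81 to 17.7 CPM in the lambdoid suture, a ratio of 1.81 to 2.88. Tnfsf11 had 3.18 to 6.46, 0.911 to 2.75, 0.455 to 1.45 and 0 to 0.479 CPM in the coronal, lambdoid, frontal and sagittal sutures, with a coronal over lambdoid ratio of 1.65 to 7.09. Nfatc1 was 1.17 to 1.35 times the lambdoid level. Tnfrsf11b, Csf1 and Il34 were highest in the coronal suture in only 2 of 4 sets. These libraries carry 1 replicate number, so the sets may be repeats of the same RNA and no test was made. The summed level of 10 osteoclast markers that are not among the 10 genes was 702 to 778 CPM in the complete coronal suture and 162 to 222 CPM in the others. Osteoblast markers went the same way: the summed level of 9 osteoblast genes was 7137 to 9226 CPM in the complete coronal suture, 4976 to 6556 in the lambdoid, 2169 to 2754 in the frontal and 1882 to 2421 in the sagittal. Chondrocyte markers had another order. They stood at 5053 to 7044 CPM in the lambdoid, 924 to 1192 in the sagittal, 204 to 253 in the coronal and 204 to 228 in the frontal suture. The part of the cell makeup of the dissected tissue in these differences was not tested. In captured coronal regions at E18.5, first and second libraries together, Acp5 reached at most 40.3 CPM of the total count, in a second SM library.

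**Figure D4:**
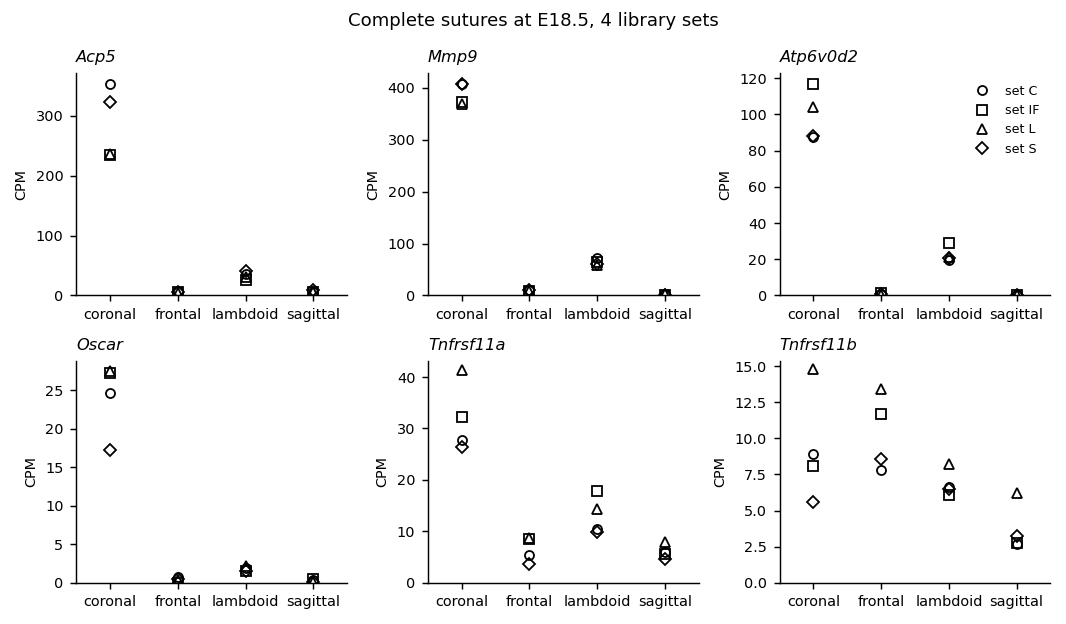
Level (CPM of the total count, linear axes from 0) of 6 genes in complete sutures at E18.5; symbols are the 4 library sets, with 1 library for each set and suture. Acp5, Mmp9, Atp6v0d2, Oscar and Tnfrsf11a are highest in the coronal suture in all 4 sets, and Tnfrsf11b in 2.

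Single cells of the coronal suture showed which cells held these transcripts. After filtering, 466 and 337 cells of the E16.5 libraries and 2412 and 1577 cells of the E18.5 libraries remained, with median depths of 2501, 2121, 18476 and 7131 UMIs. Ages are those of the sample labels, although the names of all 4 deposited matrices carry a tag for E16. The cells with more than 800 genes numbered 2625 and 1624 in the E18.5 libraries and 497 and 359 in the E16.5 libraries. For E18.5 this is the final cell number in the methods, and for E16.5 it is fewer. The libraries of an age shared 1 and 5 barcodes. The 10 genes were left out of the clustering, and clusters were named from markers. At E16.5 a cluster of 116 cells (43 and 73) was osteoclast-like, with Dcstamp, Slc9b2 and Jdp2 among its leading genes, and one of 96 (62 and 34) was macrophage-like. With 2 libraries an age no test between ages was made, and the ages differ in kit and depth.

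The osteoclast-like cells of E16.5 held most transcripts of the effector genes: 297 of 337 UMIs of Acp5 (88.1%), 88.25% of those of Mmp9, 97.1% of those of Atp6v0d2 and 71.7% of those of Nfatc1. In the 2 libraries Acp5 stood at 948 and 863 CPM, Mmp9 at 1180 and 978, Atp6v0d2 at 342 and 276, and Nfatc1 at 361 and 449. Acp5 was detected in 58.6% of them (Wilson 95% interval 49.5 to 67.2%) and in 2.08% of the 96 macrophage-like cells, at median depths of 2603 and 1997 UMIs. Thinned to 2000 UMIs a cell in 1 random draw, the shares were 73.5 and 70.8% of the 34 and 48 osteoclast-like cells that were deep enough, and 2.86 and 7.69% of 35 and 13 macrophage-like cells. All 3 UMIs of Oscar were in this cluster.

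RANK had another distribution. Tnfrsf11a stood at 200 and 104 CPM in osteoclast-like cells and at 96.8 and 173 CPM in macrophage-like cells, in opposite order in the 2 libraries. No UMI of it was found in the other 7 clusters of E16.5, where a count of 0 allows cells with a UMI at a share of up to 1.79% in the largest, of 168 cells. Csf1r was present in both, at 400 and 322 CPM in osteoclast-like and 567 and 567 CPM in macrophage-like cells.

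The few transcripts of the ligand and the decoy at E16.5 lay mostly in 1 cluster each. All 8 UMIs of Tnfsf11 at E16.5 were in 1 unnamed cluster of 168 cells (80 and 88) led by Rgs5, Mmp13 and Tnn, at 16.1 and 17.2 CPM. None was in the 26 osteoblast-like cells, where a count of 0 allows a UMI of it in up to 11.5% of cells, at this shallow depth. The leading genes of the cluster of 168 cells also held Alpl, Runx2 and Dlx5, beside the pericyte markers Rgs5 and Notch3. In the paper, an osteoblast population at each age is enriched for Mmp13. At a resolution of 1.2, which divides that cluster, 4 of the 8 were in a cluster of 59 cells led by Otor, Actr3b and F3. Of the 42 UMIs of Tnfrsf11b, 34 were in an unnamed cluster of 123 cells led by Krtdap, Pi16 and Clec3b (21.1% of its cells), of which 122 came from 1 library (112 CPM). Its leading genes held markers of both the ectocranial mesenchyme (3) and the hypodermis (2). The cluster may be that library rather than a type, and without it 8 UMIs remain. Csf1 gave 51 UMIs, 16, 15 and 11 of them in 3 unnamed clusters, with 28.1 and 38.7 CPM in the cluster that held Tnfsf11 and no UMI in macrophage-like cells, and Il34 gave 1.

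At E18.5 the macrophage-like cluster of 350 cells (277 and 73) took in the osteoclasts. Acp5 stood in it at 544 and 866 CPM (63.8% of its UMIs), Mmp9 at 325 and 809 (54.9%), Atp6v0d2 at 86.8 and 142 (86.4%) and Tnfrsf11a at 49.5 and 69.6 CPM (87.2%). Nfatc1 was spread more widely: this cluster had 94.6 and 269 CPM of it but only 25.3% of its UMIs. An unnamed cluster of 609 cells led by Sfrp2, Wnt2 and Igfbp3 held 24.7%, at 57.9 and 81.5 CPM. At resolution 1.2 there were in its place 106 osteoclast-like cells (68 and 38), 211 macrophage-like cells (188 and 23) and 33 cells (21 and 12) of an unnamed cluster led by H2-Aa, H2-Eb1 and H2-Ab1. The osteoclast-like cells held 1387 and 1359 CPM of Acp5, 826 and 1268 of Mmp9, 226 and 227 of Atp6v0d2 and 212 and 422 of Nfatc1. The macrophage-like cells held 34.5 and 51.0, 22.2 and 19.6, 2.93 and 0, and 24.6 and 15.7 CPM of the same genes. For Tnfrsf11a the values were closer, 66.0 and 95.6 CPM against 41.0 and 35.3 CPM. Acp5 was also counted in all other classes that had at least 10 cells in a library, at 10.3 to 46.5 CPM in all but 1. That class, an unnamed cluster of 387 cells led by Slc47a1, Ces2g and Itih5, had 108 and 66.8 CPM. The part of free RNA in these values was not tested.

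Tnfsf11 at E18.5 (460 UMIs) was spread over many clusters. The largest part, 206 UMIs (44.8%), was in an unnamed cluster of 693 cells led by Cp, Podnl1 and Gpx3, at 25.6 and 13.9 CPM. It was detected in 18.8% of these cells (16.0 to 21.8%), against 2.00% of macrophage-like cells, at median depths of 11775 and 17232 UMIs. The leading genes of this unnamed cluster also held Mmp13, which marks an osteoblast population in the paper, and the hypodermis marker Sfrp4. Proliferating cells held 50 UMIs (10.9%) and chondrocyte-like cells 35 (7.61%). The 11 chondrocyte-like cells of library 2 had 62.4 CPM, from 4 UMIs, and those of library 1 had 13.6 CPM. Osteoblast-like cells (447) were at 0.381 and 2.41 CPM, near the 1.33 and 0.980 CPM of macrophage-like cells. Tnfrsf11b (240 UMIs) had the other order: osteoblast-like cells held 37.9% of it at 11.8 and 20.7 CPM, and the cluster with most Tnfsf11 had 1.23 and 0.357 CPM. Another unnamed cluster, of 152 cells led by Ihh, Fat3 and Adamts18, stood at 30.3 and 6.72 CPM of Tnfrsf11b, and macrophage-like cells had none, where a count of 0 allows a UMI of it in up to 0.857% of cells.

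Mmp9 had a second place at E18.5, in the 130 chondrocyte-like cells (119 and 11), at 577 and 437 CPM and 26.5% of its UMIs. Their Acp5 was at 27.999 and 31.2 CPM and their Atp6v0d2 at 0.875 and 0 CPM. Il34 was highest in 56 pericyte-like cells, at 69.6 and 33.1 CPM, and at most 10.6 CPM in any other class. Csf1 was more even, at 23.4 and 31.8 CPM in the cluster with most Tnfsf11, 23.9 and 43.0 CPM in an unnamed cluster led by Sfrp2 and Wnt2, 28.8 and 25.8 CPM in pericyte-like cells and 8.30 and 2.94 CPM in macrophage-like cells.

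**Figure D5:**
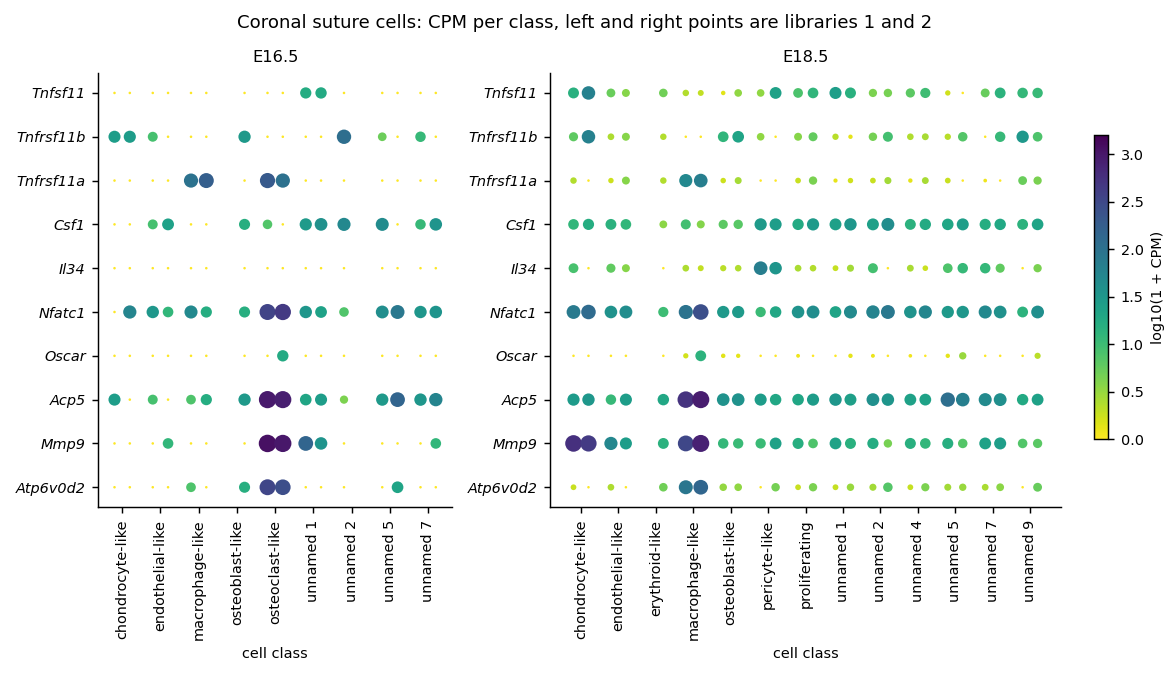
Level of the 10 genes in each cell class, at E16.5 (left panel) and E18.5 (right panel); colour and point size rise with log10(1 + CPM) of the summed UMIs, the left and right points of a pair are libraries 1 and 2, and classes under 10 cells in a library are left blank. Acp5, Mmp9, Atp6v0d2 and Nfatc1 are highest in osteoclast-like cells at E16.5, Mmp9 is also high in chondrocyte-like cells at E18.5 (577 and 437 CPM), and the largest part of Tnfsf11 at E18.5 (206 of 460 UMIs) is in unnamed cluster 1.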

How the data were processed

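Laser-captured regions of C57BL/6J sutures were amplified with the Ovation RNA-Seq V2 kit, made into Nextera XT libraries and sequenced (HiSeq 2500). Alignment by the authors used STAR 2.5.3a and mm10, and they deposited raw counts of read pairs per gene over exons, made with featureCounts 1.6.4 without strand, and the single-cell files hold deposited UMI counts per gene and cell (10x v3 kit at E16.5, v2 kit at E18.5). A deposited table of the authors' own comparisons was not used. The 134 count files held 55487 genes, of which 55394 were matched to symbols.

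Genes with at least 1 CPM in more than 10% of the 100 first libraries (19768) were tested in R 4.3.3 with edgeR 4.0.16 (quasi-likelihood test, TMM scaling, 1 mean per group, Benjamini-Hochberg adjustment within a comparison, threshold 0.05), with DESeq2 1.42.0 and limma 3.58.1 (voom) as alternatives. The code was tested on simulated data for the comparisons of region and, separately, of age. Sutures differed in depth and library set, so no suture was tested against another except in how SM differed from OF. The p-values measure the spread between these samples. An SE given with an edgeR result is the size of the log2 fold change divided by the square root of its F statistic. In each group some embryos share a litter label, and they were counted as separate. Each litter has 1 age, so differences with age cannot be told apart from differences between litters. Floors (3 counts) and intervals cover counting error only. SM and OF libraries of a suture, age and number carry the same litter and embryo label and so are paired. Deviations from the group means correlated by more than 0.1 in 16 of 60 pairs (-0.16 to 0.26). The fit with this block is given where it changed a call.

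Single cells with more than 800 detected genes and within 3 median absolute deviations were clustered by age in scanpy 1.11.5 (2000 variable genes, 13 components, 100 neighbours, resolution 0.8). The 10 genes took no part. A cluster was named when at least 3 markers of 1 class were among its 25 leading genes, with no more than 1 of any other class, a rule set after the clusters were seen. Cells called as doublets (3, 6, 24 and 4) were kept, and left out as an alternative.

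The 10 genes and all lists were chosen with earlier results of these data known. Named genes are the 10, up to 4 genes per list with the largest called change between SM and OF or with age in OF, and the 3 genes most like Tnfsf11, Tnfrsf11b and Acp5. The result of 1 gene of these lists is not reported here.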

Additional observations from a re-analysis of the deposited data

Results flagged for a closer look

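Of 240 groups of 4 or 5 libraries tested, 37 had 1 library whose gap to the nearest other exceeded Dixon's critical value for that number. For normally distributed values chance flags about 1 in 20 groups. That rate does not hold for low counts, where 1 library with a count among libraries at 0 is always flagged. The 37 are thus not read against it. Values are CPM on TMM-scaled totals and are given without explanation.

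For Tnfsf11 the high libraries were coronal FR E18.5 replicate 5 (1.56 CPM), coronal PA E18.5 replicate 2 (3.97), coronal SM E16.5 replicate 2 (0.128), frontal SM E18.5 replicate 2 (0.871) and lambdoid SM E18.5 replicate 3 (1.93). For Tnfrsf11b they were coronal SM E16.5 replicate 3 (0.0831 CPM), lambdoid PA E18.5 replicate 4 (18.4) and lambdoid SM E18.5 replicate 2 (8.202). Tnfrsf11a was low in lambdoid PA E16.5 replicate 5 (9.80 CPM) and high in lambdoid SM E18.5 replicate 4 (13.3). Csf1 was high in coronal FR E16.5 replicate 2 (84.2 CPM) and sagittal PA E18.5 replicate 3 (45.1), and Il34 in coronal PA E16.5 replicate 2 (2.13) and coronal PA E18.5 replicate 4 (1.53).

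Nfatc1 was low in lambdoid E18.5 replicate 3 of both fronts, IP (108 CPM) and PA (120.4), and high in frontal SM E16.5 replicate 1 (164) and sagittal SM E18.5 replicate 3 (231). Oscar was high in coronal PA E16.5 replicate 2 (0.246 CPM), coronal SM E18.5 replicate 1 (3.47) and frontal FR E18.5 replicate 5 (4.53), the library that stood apart. Acp5 was high in lambdoid IP E18.5 replicate 2 (5.34 CPM) and lambdoid PA E18.5 replicate 3 (8.87). Mmp9 was high in coronal SM E16.5 replicate 2 (23.6 CPM), frontal SM E18.5 replicate 2 (7.84), lambdoid PA E18.5 replicate 3 (8.67) and sagittal SM E16.5 replicate 5 (2.11).

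Atp6v0d2, which had no count in 42 of 100 libraries, had the most libraries flagged. They were coronal PA replicate 3 at E16.5 (11.2 CPM) and at E18.5 (17.002), frontal SM E16.5 replicate 2 (0.0938), lambdoid IP E16.5 replicate 4 (0.880), lambdoid IP E18.5 replicate 2 (1.00), lambdoid PA E16.5 replicate 3 (0.103), lambdoid SM E16.5 replicate 1 (0.0860) and sagittal SM E18.5 replicate 4 (0.260). Among complete sutures Il34 was high in the coronal suture of set C (3.70 CPM of the total count) and Tnfrsf11b in the sagittal suture of set L (6.22).

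The difference between SM and OF changed with the suture for Tnfrsf11b (adjusted p = 5.18e-13, edgeR's quasi-likelihood test), Tnfrsf11a (3.56e-09), Atp6v0d2 (0.00103), Nfatc1 (0.018) and Csf1 (0.046). For Atp6v0d2 the lambdoid and sagittal levels compared were near 0.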

How the results depend on the processing

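Of 788 alternative log2 fold changes for 49 called differences, 683 kept their direction and side of the threshold, 102 kept their direction only and 3 reversed. The number of genes called in SM against OF over all sutures was 4 under each replicate left out in turn (lowest 4, highest 4), and that by suture and age was 24 to 30, against 29. Among sutures it was 5, fell to 3 with total counts without TMM, and was 3 to 4 with a replicate left out. For age in SM it was 3, and 1 with second coronal libraries in place of the first, 1 without the coronal E16.5 first libraries, 0 with coronal E16.5 from second libraries alone and 1 to 2 with a replicate left out. For age in OF it was 2, and 5 with coronal E16.5 from second libraries alone. By suture and region it was 11 with age, 5 with second libraries in place of the first, 7 without the coronal E16.5 first libraries (against 2 over the same comparisons) and 8 to 12 with a replicate left out. The shares of all genes called under these settings are not given here, so changes in the counts are no result about these genes. The reversed values were Tnfrsf11b with age in SM without the coronal E16.5 first libraries (-0.33, a mean over the other sutures alone) and Acp5 with age in coronal FR with second libraries in place of the first (-0.051) or alone at E16.5 (-1.57). Taking coronal E16.5 from second libraries alone sets them against first libraries at E18.5, so age and library set cannot be told apart there. For the other reversals the cause was not tested. The settings that leave out these libraries, take coronal E16.5 from second libraries alone, or leave out frontal FR E18.5 replicate 5 were chosen after seeing the data.

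With the embryo as a replicate block, the pairing left the counts at 4 over all sutures, 29 by suture and age, 5 among sutures and 0 for the change with age, and the 4 calls it lost and 4 it added by suture and age are given beside the results of their genes. Of 129 single-cell levels, 12 moved beyond their interval, 6 of them with resolution 1.2 and 5 with a minimum of 500 genes per cell. Tnfsf11, Oscar and Atp6v0d2 were at 0 in 22, 20 and 42 of 100 libraries, and the part of depth in these zeros was not tested.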
